A study of Mus musculus with 4 samples.

Results

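The genes that make, carry and destroy retinoic acid were examined for open chromatin in large peritoneal macrophages (LPMs), the resident macrophages of the mouse peritoneal cavity. The 9 genes are Rdh10, Aldh1a1, Aldh1a2, Aldh1a3, Dhrs3, Stra6, Crabp2, Cyp26a1 and Cyp26b1. A region was assigned to them when the transcription start site (TSS) nearest to its midpoint was theirs, or when it overlapped the body of the gene. This gave 61 of the 70744 regions of the series. They belong to 7 of the 9 genes, and Aldh1a1 and Stra6 had no region in any of the 4 libraries.

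Open chromatin was measured by ATAC-seq, in which the transposase Tn5 cuts and tags accessible DNA, in LPMs sorted from 9-week-old C57BL/6 mice. The control group, called WT here, carries floxed alleles of both Rxra and Rxrb (RXRabfl/fl) without Cre and has 2 libraries, replicates 1 and 3. The other group, called KO here, is LysMCre+RXRabfl/fl, in which Cre under the control of the lysozyme M gene deletes both receptors in myeloid cells, and has 2 libraries, replicates 1 and 2. Each library was made from 40000 cells, and all 4 belong to library batch 1. According to the Reporting Summary of the study, libraries that failed to cluster with their own genotype were dropped, which may make replicates look more alike than they are. Replicates are separate samples in the labels, and p values measure only the spread between these samples.

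Retinol enters some cells through the receptor Stra6 and is oxidised to retinaldehyde by Rdh10. The retinaldehyde dehydrogenases Aldh1a1, Aldh1a2 and Aldh1a3 then make retinoic acid, Dhrs3 turns retinaldehyde back into retinol, Crabp2 hands retinoic acid to its nuclear receptors, and the cytochromes Cyp26a1 and Cyp26b1 inactivate it. Retinoic acid receptors bind DNA together with RXRs at direct repeats (DR) of a hexamer, Dhrs3 and Cyp26a1 are classical genes induced by retinoic acid, and in the peritoneal cavity retinoic acid from surrounding stroma is known to sustain the LPM transcription factor Gata6.

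DNA sequence was searched on both strands for direct repeats of the hexamer that has A or G, then G, then G or T, then T, C and A, with 1, 2 or 5 bases between the copies (DR1, DR2 and DR5). The following 4 stretches are shown because they hold such a repeat at the genes of retinoic acid breakdown or retinaldehyde reduction. All are written on the plus strand of GRCm38 (mm10), with the hexamers in capitals. The first is a RefSeq promoter, from 250 bases before to 50 after the TSS, and the others were read from the genome under the regions.

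Cyp26a1 promoter, DR5 on the minus strand, chr19:37697558-37697857: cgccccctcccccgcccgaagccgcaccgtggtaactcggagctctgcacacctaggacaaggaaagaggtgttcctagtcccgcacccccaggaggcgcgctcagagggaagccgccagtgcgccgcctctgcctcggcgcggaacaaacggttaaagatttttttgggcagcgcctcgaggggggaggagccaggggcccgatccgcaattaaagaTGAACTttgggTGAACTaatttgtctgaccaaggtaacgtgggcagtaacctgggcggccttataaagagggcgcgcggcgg

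Cyp26a1 region 4.75 kb downstream of the TSS, DR2 on the minus strand, chr19:37702403-37702702: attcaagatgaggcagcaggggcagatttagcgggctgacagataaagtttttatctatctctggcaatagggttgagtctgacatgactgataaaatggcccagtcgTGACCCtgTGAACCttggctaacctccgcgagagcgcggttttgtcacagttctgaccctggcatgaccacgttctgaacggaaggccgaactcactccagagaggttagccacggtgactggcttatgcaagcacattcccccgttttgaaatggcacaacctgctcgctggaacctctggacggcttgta

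Dhrs3 region 5.09 kb downstream of the TSS, DR5 on the plus strand, chr4:144898233-144898532: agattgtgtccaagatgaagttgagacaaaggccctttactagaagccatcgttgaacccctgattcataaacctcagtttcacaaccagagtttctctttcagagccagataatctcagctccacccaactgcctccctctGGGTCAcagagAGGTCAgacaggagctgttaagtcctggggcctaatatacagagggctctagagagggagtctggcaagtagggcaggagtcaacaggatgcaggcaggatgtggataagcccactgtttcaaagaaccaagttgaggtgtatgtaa

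Dhrs3 region 134 kb downstream of the TSS, DR5 on the minus strand, chr4:145026649-145026948: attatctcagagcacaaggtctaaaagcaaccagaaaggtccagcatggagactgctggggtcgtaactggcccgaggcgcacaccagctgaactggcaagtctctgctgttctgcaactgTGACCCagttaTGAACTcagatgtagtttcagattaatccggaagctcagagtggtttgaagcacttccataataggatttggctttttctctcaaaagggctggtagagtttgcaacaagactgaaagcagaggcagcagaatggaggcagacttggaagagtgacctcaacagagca

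Read along their own strand, the repeats are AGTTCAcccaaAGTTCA in the Cyp26a1 promoter, GGTTCAcaGGGTCA downstream of Cyp26a1, GGGTCAcagagAGGTCA in the first Dhrs3 stretch and AGTTCAtaactGGGTCA in the second. The promoter repeat ends 15 bases before the Cyp26a1 TSS. Within 300 bp centred on the strongest summit, DR2 was found in 2 of the 61 regions and DR5 in 1, against 0.233 and 0.188% of all 70744 regions. DR1 was found in 0 of the 61, against 0.229% of all. The DR2 not shown in full, GGTTCAgaGGTTCA, lies 129 bp from the summit of a region upstream of Dhrs3. Over the whole length of the regions, DR5 was found in 2 of the 61, against 0.259% of all regions, the added one being that 5.09 kb into Dhrs3, which lies 311 bp from the strongest summit. Of the 9 genes, 6 matched the RefSeq promoter table, with 12 entries. The DR5 of Cyp26a1 was the only repeat of the 3 kinds in these 12 sequences, and 0.0974% of all 32851 promoters of that length hold a DR5. A match describes the letters only and does not show a bound site.

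The libraries differed in the number of peaks and in signal. A peak is a stretch called by the authors at a q value of 0.05, so a region that was not called in a library had a signal under that threshold and was not measured as closed. The lists hold 38048 and 16097 peaks in WT replicates 1 and 3 and 65421 and 55581 in KO replicates 1 and 2. They reach 52.0 and 21.9% of all regions in WT and 90.7 and 77.2% in KO. The lowest local background was 1.97 and 1.06 tags in WT and 1.33 and 1.08 in KO. Peak strength is given as fold enrichment, the ratio of the tag pileup at the summit to the local background, and as the pileup itself, the number of tags stacked at the summit. Over the 15199 regions called in all 4 libraries, the median fold enrichment was 14.5 and 7.52 in WT and 15.1 and 12.0 in KO, and log2 values were therefore centred on the median of each library before the genotypes were compared.

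Regions at LPM marker genes were called in every library. Of 9 LPM marker genes, 7 and 6 had a called promoter region in WT and 8 in each KO library. Gata6, Timd4, Icam2, Adgre1, Cebpb and Alox15 had one in all 4. Cd5l had none in WT replicate 3, Itgam none in either WT library and Csf1r none in any library. Of the 6 genes listed for small peritoneal or monocyte-derived macrophages, 1 had a called promoter region in each WT library and 5 and 4 in KO. Among all genes, 44.3 and 32.6% had a called promoter region in WT and 49.9 and 47.5% in KO. Regions at the 6 small macrophage genes numbered 19 and 5 in WT and 45 and 38 in KO, against 52 and 27 in WT and 61 and 63 in KO at the LPM genes. For these and the lists below, the libraries called 52.0 and 21.9% of all regions in WT and 90.7 and 77.2% in KO. At 8 genes of mesothelium and stroma, the cells that carry Aldh1a enzymes around the cavity, 8 and 3 regions were called in WT and 19 in each KO library. Of the 8, 7 had a region and Wt1 had none. The T cell list of 4 genes had 2 and 0 regions in WT and 6 and 4 in KO, the mast cell list of 3 had 0 and 0 against 2 and 0, the neutrophil list of 4 had 1 and 0 against 4 and 3, and the dendritic cell list of 2 had 5 and 1 against 13 and 10. Cd3g, Cpa3 and Mcpt4 had no region, while Cd3e, Cd4, Lck and Kit each had 1 to 3. The cells had been sorted as LPMs, a population the study defines by high F4/80 and low MHC class II. Whether cells of these other types remained was not tested, nor was their part in the values below. At the targeted gene Rxra, 14 and 6 regions were called in WT and 25 and 22 in KO, but removal of the floxed exons cannot be read from peak calls, which therefore do not check the labels.

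Across the genes, the calls followed the lists. Of the 61 regions, 33 and 14 were called in WT (54.1 and 23.0%) and 53 and 48 in KO (86.9 and 78.7%), shares near those of all regions. No region was called in both WT libraries and in neither KO library, where 0.0452% of all regions were. In the other direction 12 of the 61 (19.7%) were called in both KO libraries and in neither WT library, against 22.8% of all regions. A further 14 (23.0%) were called in all 4, against 21.5%. These counts depended on which libraries were used. Without WT replicate 3, 1 region was called in WT alone and 29 in all of the remaining libraries, and without WT replicate 1, 27 were called in KO alone. That last number was 19 without KO replicate 1 and 21 without KO replicate 2. The counts are given without a test, since exact permutation of 2 against 2 libraries cannot reach 0.05.

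**Figure D1:**
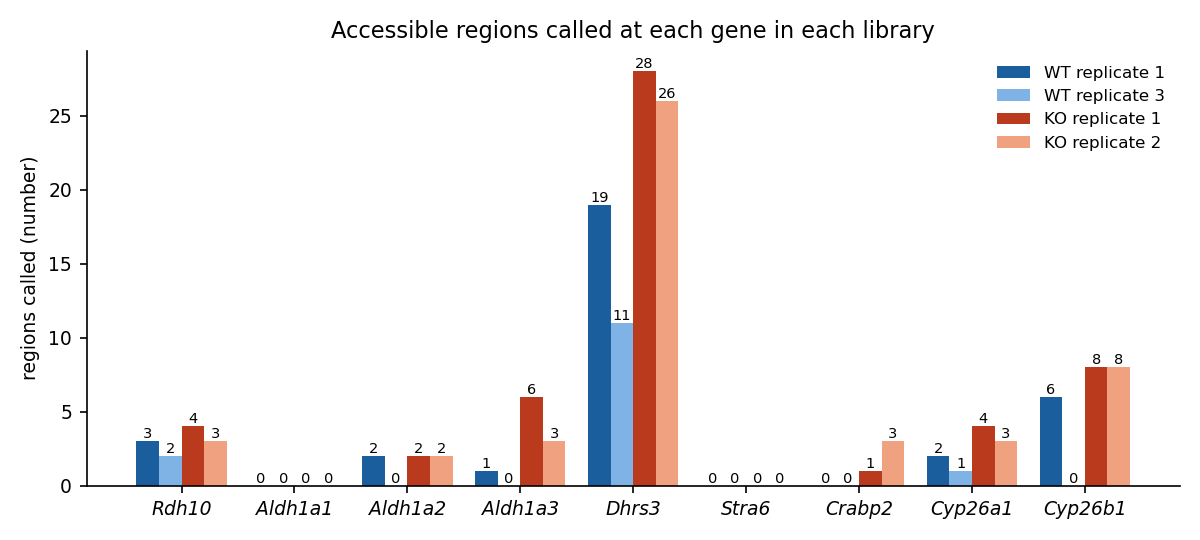
Number of accessible regions called at each of the 9 genes (horizontal axis) in each library (bars, blue for WT and red for KO). Dhrs3 has the most in every library, from 11 in WT replicate 3 to 28 in KO replicate 1, and Aldh1a1 and Stra6 have 0.

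**Figure D2:**
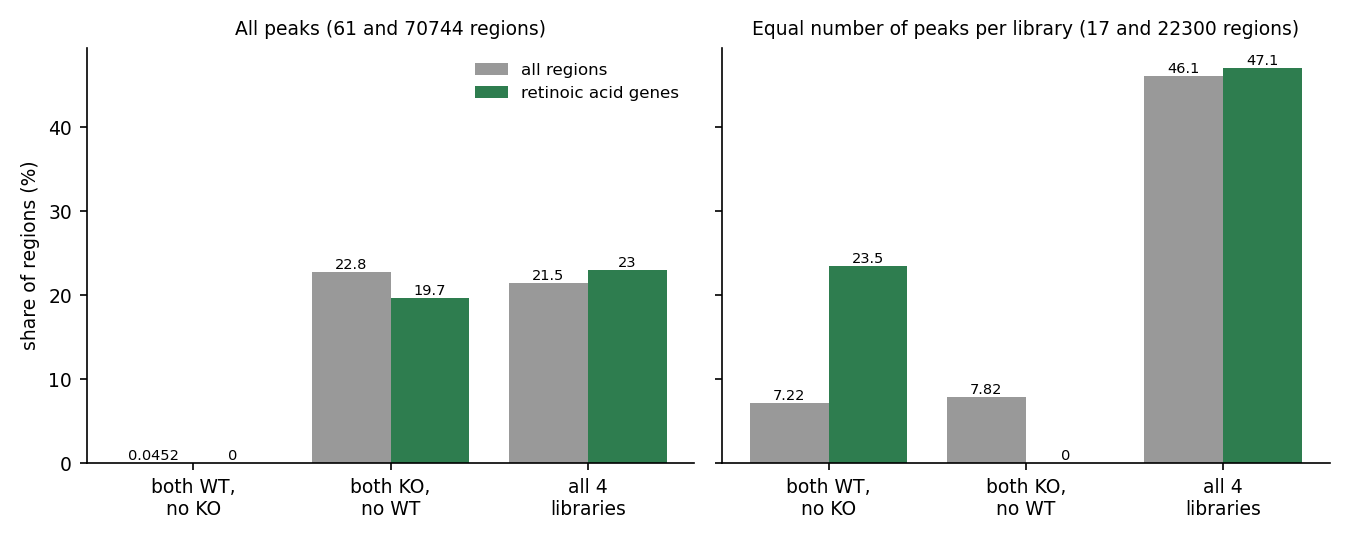
Share of regions (%) by pattern of calls, for all regions (grey) and the retinoic acid genes (green), with all peaks on the left and with the same number of peaks taken from each library on the right. With equal numbers, 23.5% of the regions at these genes were called in both WT libraries only, against 7.22% of all.

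Because the lists differ in length, the calls were also compared with the 16097 peaks of lowest q value from each library. This kept the whole list of WT replicate 3 and only the top part of the other 3, and left 17 regions at the 9 genes, of 22300 in all. Of the 17, 4 (23.5%) were called in both WT libraries and in neither KO library, against 7.22% of all regions, and 0 in both KO libraries alone, against 7.82%. The 4 lie 5.09, 12.1 and 68.3 kb downstream of the Dhrs3 TSS and 4.72 kb downstream of that of Cyp26a1. Another 8 of the 17 (47.1%) were called in all 4 libraries, against 46.1% of all regions. The 4 regions were also called in both KO libraries when all peaks were used.

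At the synthesis genes, open chromatin was found at Rdh10, Aldh1a2 and Aldh1a3 and was called least often in WT replicate 3. Rdh10, which sets the supply of retinaldehyde, lies on chromosome 1 (16105882 to 16132550, plus strand) and had 4 regions. A wide region over its promoter (chr1:16104539-16106167), which also spans the start of the ribosomal protein gene Rpl7, had a fold enrichment of 8.24 and 5.84 in WT and of 12.8 and 8.94 in KO. After centring, the genotypes overlapped, with a KO minus WT difference of 0.25 in log2 (standard error, SE, 0.23, limma adjusted p = 0.522). This difference was 0.03 without WT replicate 1, 0.15 without WT replicate 3 and 0.62 without centring. The strongest Rdh10 region, 123 kb downstream (chr1:16228124-16228900, intergenic), had 13.4 and 6.20 in WT and 16.6 and 10.9 in KO. Its libraries overlapped as well, and the difference was 0.20 (SE 0.21, limma adjusted p = 0.608). It was −0.22 without WT replicate 3, 0.06 without KO replicate 1, 0.33 without KO replicate 2 and 0.56 without centring.

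Aldh1a2, the main dehydrogenase of mesothelium and embryo, lies on chromosome 9 (71215789 to 71296243, plus strand) and had 3 regions. Its promoter region (chr9:71215188-71215963) had the highest mean log2 enrichment of the 3, with a fold enrichment of 8.09 in WT replicate 1 and of 5.94 and 6.60 in KO, and it was not called in WT replicate 3. The midpoint of this region is nearer to the start of the neighbouring transcript Gm3458. In WT replicate 1 the value was higher than in both KO libraries. Aldh1a3, on chromosome 7 (66390892 to 66427477, minus strand), had 6 regions, all of them called in KO replicate 1, 3 in KO replicate 2, 1 in WT replicate 1 and 0 in WT replicate 3. The same libraries called 90.7, 77.2, 52.0 and 21.9% of all regions. The region at the Aldh1a3 promoter (chr7:66427307-66427783) was called in the KO libraries only, at a fold enrichment of 10.3 and 8.17, and rests on a pileup of 28 and 16 tags. A region in its 3′ UTR was also called only in KO, at 5.69 and 6.33. Such calls in both KO libraries alone made up 22.8% of all regions. The Aldh1a3 region called in WT replicate 1, 22.7 kb upstream, had 6.09 there and 15.6 and 7.62 in KO. Over all 24963 genes, 44.3 and 32.6% had a called promoter region in WT and 49.9 and 47.5% in KO, and 23.1% had no region of any kind, as Aldh1a1 (chromosome 19, 20492583 to 20643463) and Stra6 (chromosome 9, 58129088 to 58153997) did here.

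Dhrs3, the reductase that lowers retinaldehyde, stood out by the number of its regions. It lies on chromosome 4 (144892827 to 144928209, plus strand) and had 31 of the 61 regions, a number reached or passed by 79 of 24963 genes (0.316%), where the median gene had 2. Of these, 2 lie upstream, 6 touch the gene body and 23 lie downstream, of which 14 are within the gene Vps13d and are counted for Dhrs3 because its TSS is the nearest. They were called 19 and 11 times in WT and 28 and 26 times in KO, where these libraries called 52.0, 21.9, 90.7 and 77.2% of all regions. Of the 31, 11 were called in all 4 libraries, against 21.5% of all regions. Another 4 were called in both KO libraries and in neither WT library, against 22.8%. No Dhrs3 region was called in WT alone, where 0.0452% of all regions were called in both WT libraries and in neither KO library. With equal numbers of peaks, 16097 in each library, 10 and 11 were called in WT and 8 and 7 in KO. Of all regions in that setting, 7.22% were called in both WT libraries alone and 7.82% in both KO libraries alone. The Dhrs3 counts were not tested.

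**Figure D3:**
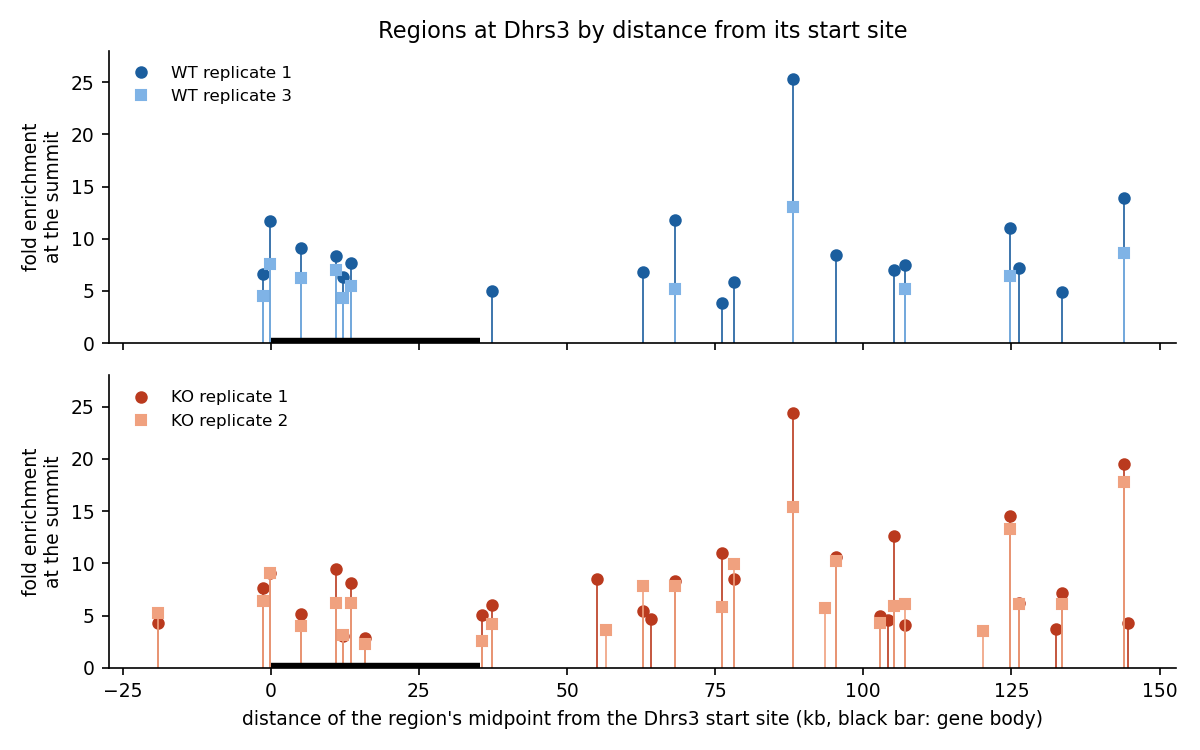
Fold enrichment at the summit of each called Dhrs3 region (points) against the distance of its midpoint from the Dhrs3 start site in kb, with WT above and KO below and the gene body as a black bar. The highest point lies 88.1 kb downstream in both WT libraries and KO replicate 1 and 144 kb downstream in KO replicate 2.

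The Dhrs3 promoter region (chr4:144892196-144893140) was among the strong peaks of each library. Its summit pileup was 237 and 53 in WT and 212 and 179 in KO. Ranked by q value, it was in the top 7.70 and 18.5% of the peaks of the WT libraries and the top 6.82 and 3.74% of the KO libraries. The fold enrichment was 11.7 and 7.54 in WT and 9.11 and 9.12 in KO. After centring, both WT libraries lay above both KO libraries, but the difference of −0.41 (SE 0.22, limma adjusted p = 0.296) did not pass the threshold. It was −0.24 without KO replicate 1 and −0.04 without centring. On the pileup the genotypes overlapped, with a difference of −0.067 (SE 0.23, limma adjusted p = 0.863). The strongest Dhrs3 region lies 88.1 kb downstream in an intron of Vps13d (chr4:144980836-144981612). It had a fold enrichment of 25.3 and 13.0 in WT and of 24.4 and 15.4 in KO, with pileups of 261, 48, 194 and 100. Here too both WT libraries lay above both KO libraries, by −0.27 in fold enrichment (SE 0.21, limma adjusted p = 0.480) and −0.55 on the pileup (SE 0.23, limma adjusted p = 0.138), while the first was −0.61 without WT replicate 3, −0.43 without KO replicate 1, −0.10 without KO replicate 2 and 0.10 without centring.

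In fold enrichment, the lowest KO values relative to WT were found in introns of Dhrs3, at the region that holds the DR5 shown above and at another further into the gene. Both were singled out after their values were seen. The region 5.09 kb from the TSS (chr4:144897913-144898539) had a fold enrichment of 9.16 and 6.22 in WT and of 5.11 and 4.03 in KO. Relative to the library medians these are −0.66, −0.27, −1.57 and −1.58 on the log2 scale, so that both WT libraries stood above both KO libraries by more than the libraries of a genotype differed. The log2 fold change was −1.10 (SE 0.22) with a limma adjusted p of 0.0562. The threshold was an adjusted p under 0.05 together with a change past 1 in log2, so this region fell just short. The pileup of 89 and 25 in WT and 52 and 47 in KO gave −0.80 (SE 0.26, limma adjusted p = 0.0752), also with no overlap. The DR5 is inside the called peak of WT replicate 1 and of both KO libraries and outside that of WT replicate 3.

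The region 12.1 kb from the TSS (chr4:144905050-144905459) had 6.37 and 4.33 in WT and 3.03 and 3.12 in KO, a difference of −1.14 (SE 0.23, limma adjusted p = 0.0591). Its pileup of 171 and 30 in WT and 102 and 117 in KO overlapped after centring, and differed by −0.26 (SE 0.29, limma adjusted p = 0.573). The local background under this summit was 26.0 and 6.16 tags in WT and 33.0 and 36.9 in KO, which enters the fold enrichment. On either side of it, the regions at 11.0 and 13.6 kb went to higher pileups in KO by 0.50 and 0.65 with no overlap (limma adjusted p = 0.143 and 0.0954), while their fold enrichment differed by −0.37 and −0.24, or by −0.72 and −0.48 without WT replicate 1. Without KO replicate 2 the change in fold enrichment at 11.0 kb was −0.23. Without centring it was −0.0 at 11.0 kb and 0.12 at 13.6 kb. The direction at 11.0 and 13.6 kb thus depended on the measure, while at 5.09 and 12.1 kb both measures gave a lower value in KO.

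The calls at 5.09 and 12.1 kb depended on the regions tested, the scaling and single libraries. Tested over the 35577 regions called in at least 1 library of each genotype, both passed the threshold (limma adjusted p = 0.0129 and 0.0132). Over all regions, 137 were then higher in WT and 2750 in KO. Those higher in KO included the regions 76.2 kb from Dhrs3 and 80.2 kb from Cyp26a1. The first had a value in 1 WT library only (3.85 in replicate 1, against 11.0 and 5.78 in KO). The second had a value in 1 library of each genotype (5.72 in WT replicate 1 and 12.9 in KO replicate 1). Neither call has a spread between WT libraries of its own, so neither is read as a difference. Without centring the differences at 5.09 and 12.1 kb were −0.74 and −0.77 (limma adjusted p = 0.984 and 0.982), and with quantile normalization −0.93 and −0.70 (limma adjusted p = 0.0615 and 0.0871). A mean-variance trend gave limma adjusted p values of 0.0505 and 0.236. Without WT replicate 1, the changes in fold enrichment were −1.30 and −1.34 (limma adjusted p = 0.00061 and 0.000691), and without WT replicate 3 they were −1.24 and −1.28 (limma adjusted p = 0.0309 and 0.0325), past the threshold each time. Without KO replicate 1 they were −1.11 and −0.95 (limma adjusted p = 0.174 and 0.28), and without KO replicate 2 −1.10 and −1.33 (limma adjusted p = 0.249 and 0.0837), which did not pass. A genotype left with 1 library is assumed to vary like the other.

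Further downstream, the regions at 68.2 and 107 kb had lower values in KO on both measures, by −0.31 and −0.68 in fold enrichment and by −0.68 at each on the pileup, and those at 125 and 144 kb higher values, by 0.36 and 0.39 and by 0.16 and 0.42. The pileups at 107 and 125 kb overlapped between genotypes. Without WT replicate 3, the fold enrichment at 125 and 144 kb differed by 0.12 and 0.19, and without centring by 0.72 and 0.76. The fold enrichment at 107 kb differed by −0.23 without KO replicate 1, by −1.13 without KO replicate 2 and by −0.31 without centring. At 68.2 kb it was −0.77 without WT replicate 3, −0.18 without WT replicate 1 or KO replicate 1, and 0.06 without centring. None of these regions passed the threshold. The region with the other Dhrs3 DR5, 134 kb downstream in an intron of Vps13d (chr4:145026343-145026973), holds the repeat 21 bp from its summit. It had a fold enrichment of 4.92 in WT replicate 1, 7.19 and 6.13 in KO, and was not called in WT replicate 3. It was a weak peak in each library that called it, with 17 to 19 tags. The region 19.1 kb upstream (chr4:144873641-144873851) was called in KO only, at 4.30 and 5.29, and has its DR2 outside the region itself.

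Crabp2, which delivers retinoic acid to its receptors, lies on chromosome 3 (87948693 to 87953372, plus strand) and had 3 weak regions, none of them called in WT. KO replicate 2 had all 3 and KO replicate 1 had 1. Of all regions, 22.8% were called in both KO libraries alone, 18.3% in KO replicate 1 alone and 6.68% in KO replicate 2 alone. The region 1.25 kb upstream (chr3:87947060-87947826) was called in both KO libraries at a fold enrichment of 4.60 and 3.50 and 22 tags each. It holds a DR2, AGTTCAccAGGTCA, inside the peak of KO replicate 1. The promoter region (chr3:87948382-87948764) and a region in an intron 3.78 kb from the TSS were called in KO replicate 2 alone, at 3.40 and 3.61.

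At the degrading enzymes, the promoters were not called in any library, and the open regions lay outside them. Cyp26a1 lies on chromosome 19 (37697808 to 37701536, plus strand) and had 4 regions, none within 1 kb upstream to 200 bp downstream of its TSS, so that its promoter DR5 was under no called peak. The only Cyp26a1 region called in all 4 libraries lies past the 3′ end of the gene, 4.75 kb from the TSS (chr19:37702336-37702777, intergenic), and holds the DR2 shown above 35 bp from its strongest summit, inside the peak of every library. Its fold enrichment was 11.3 and 5.42 in WT and 9.19 and 6.92 in KO. The pileup was 55 and 12 in WT and 24 and 21 in KO, where the median over regions called in all 4 libraries was 97 and 20 in WT and 99 and 65 in KO. Relative to these medians, both WT libraries lay close together at −0.82 and −0.74, above both KO libraries at −2.04 and −1.63. Only regions called in all 4 libraries were compared. The lowest pileup of any peak was 6 in WT replicate 3 and in each KO library, against these medians of 20, 99 and 65. A called region can therefore lie less far below the median in WT replicate 3 than in KO. How far this adds to the difference was not tested.

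The Cyp26a1 region at 4.75 kb was the only one of the 14 regions to pass the limma threshold on either measure. On the pileup it fell by 1.06 on the log2 scale in KO (SE 0.24, limma adjusted p = 0.0296). In fold enrichment the change was −0.34 (SE 0.21, limma adjusted p = 0.340), again with both WT libraries above both KO libraries, and it was −0.74 without WT replicate 3 (limma adjusted p = 0.0908) and 0.03 without centring. The local background there was 3.94 and 1.40 tags in WT and 1.72 and 2.18 in KO. A Cyp26a1 region 80.2 kb downstream (chr19:37777834-37778229) was called in WT replicate 1 at 5.72 and in KO replicate 1 at 12.9. It had the highest mean log2 enrichment over the libraries with a call, but that mean covers 2 libraries here and 4 at 4.75 kb, where the value was lower only in KO replicate 1. The other 2 were called in both KO libraries only, as were 22.8% of all regions. They lie 117 kb downstream, at 5.16 and 8.11, and 4.70 kb upstream, in a coding exon of the neighbouring Cyp26c1, at 4.40 and 5.00. That last region is also counted for Cyp26c1 among the other pathway genes below.

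Cyp26b1 lies on chromosome 6 (84571414 to 84593908, minus strand) and had 10 regions, called 6 and 0 times in WT and 8 times in each KO library. The shares of all regions were 52.0 and 21.9% in WT and 90.7 and 77.2% in KO. The strongest Cyp26b1 region lies in an intron 10.4 kb from the TSS (chr6:84583165-84583745). It had a fold enrichment of 10.8 in WT replicate 1 and of 14.1 and 9.60 in KO, with 74, 98 and 61 tags. Before centring, the value of WT replicate 1 lay between those of the KO libraries. The median over regions called in all 4 libraries was 14.5 in WT replicate 1 and 15.1 and 12.0 in KO. Relative to these medians, WT replicate 1 lay below both KO libraries. With equal numbers of peaks it was called in the same 3 libraries. An intron region 3.46 kb from the TSS had 8.53 in WT replicate 1 and 12.8 and 9.77 in KO. The other Cyp26b1 regions included 5 in introns of Exoc6b, from 47.1 to 159 kb upstream, and 1 in an intron of Cyp26b1 that was called in WT replicate 1 alone.

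**Figure D4:**
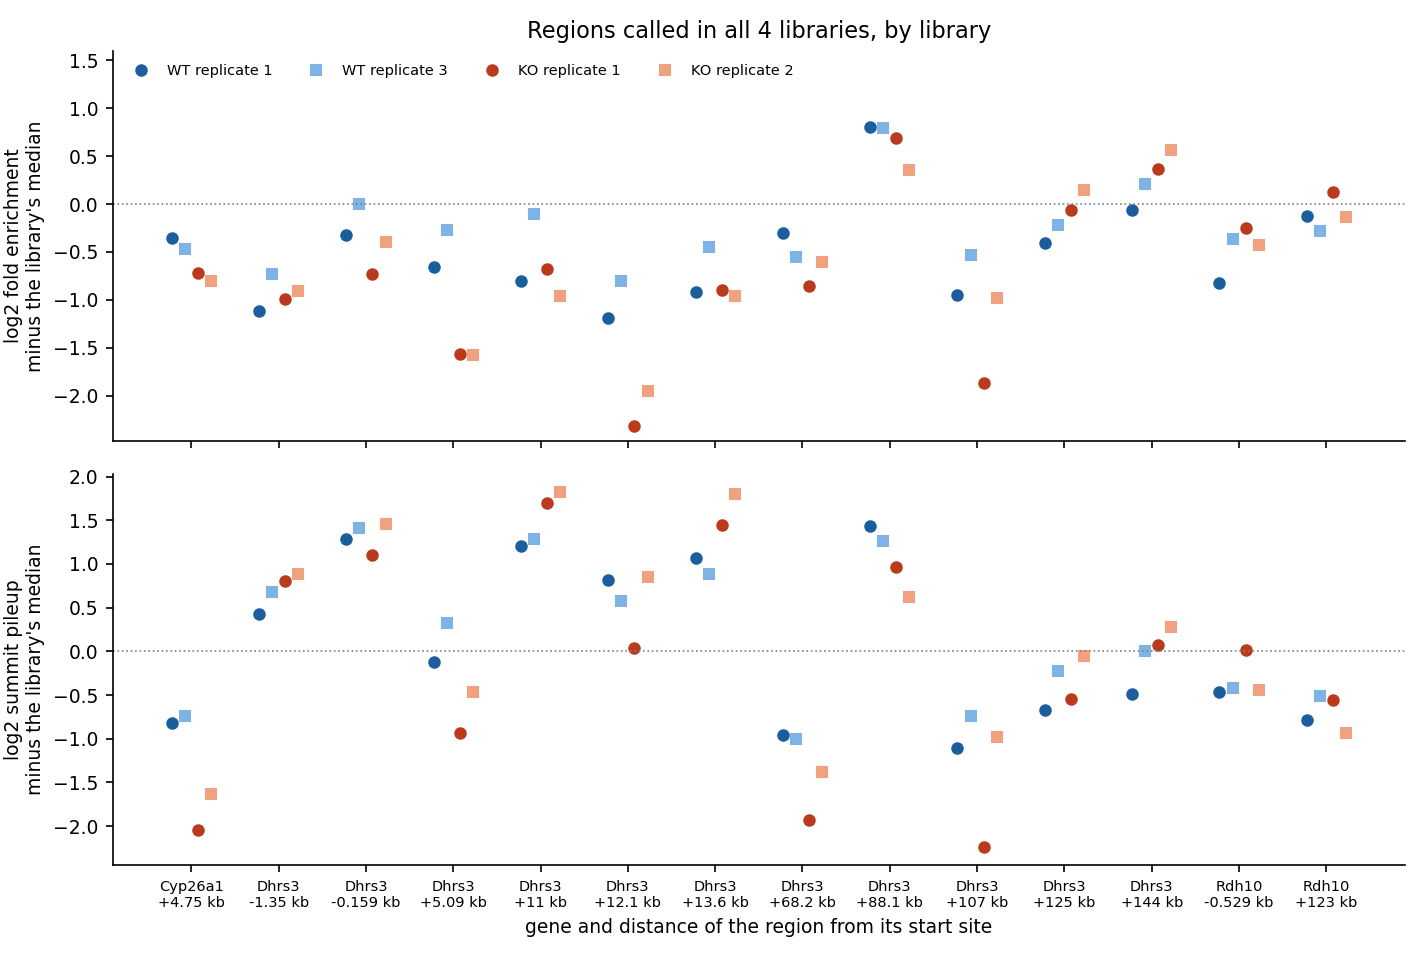
Log2 fold enrichment (top) and log2 summit pileup (bottom) of the 14 regions called in all 4 libraries, each minus the median of its library, with 1 point per library (blue WT, red KO). At 5.09, 68.2 and 88.1 kb of Dhrs3 and at 4.75 kb of Cyp26a1 both WT points lie above both KO points in both panels.

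Over the 14 regions called in all 4 libraries, 11 at Dhrs3, 2 at Rdh10 and 1 at Cyp26a1, limma on fold enrichment called 0 higher in WT and 0 higher in KO, where 0.0461 and 0.0395% of all 15199 regions were called. At an unadjusted p under 0.05 there were 3 of the 14 (and 3345 of all). On the pileup 1 of the 14 was called higher in WT, against 4.98% of 15196 regions, and 0 higher in KO, against 2.49%, with 6 of the 14 at an unadjusted p under 0.05 (5047 of all). A single region of 14 is a share near that background. Both WT libraries lay above both KO libraries in 7 of the 14 in fold enrichment, against 32.9% of all regions, and below them in 2, against 22.3%. On the pileup these were 4 and 4 of the 14, against 36.9 and 25.2%. The median change was −0.29 in fold enrichment, against −0.087 over all regions, and −0.081 against −0.104 on the pileup. Without WT replicate 1, or without WT replicate 3, the regions at 5.09 and 12.1 kb of Dhrs3 passed in fold enrichment as higher in WT. So did 543 of the 15231 regions tested without WT replicate 1 and 425 of the 33268 tested without WT replicate 3, where 29 regions of these genes had a call in each remaining library.

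**Figure D5:**
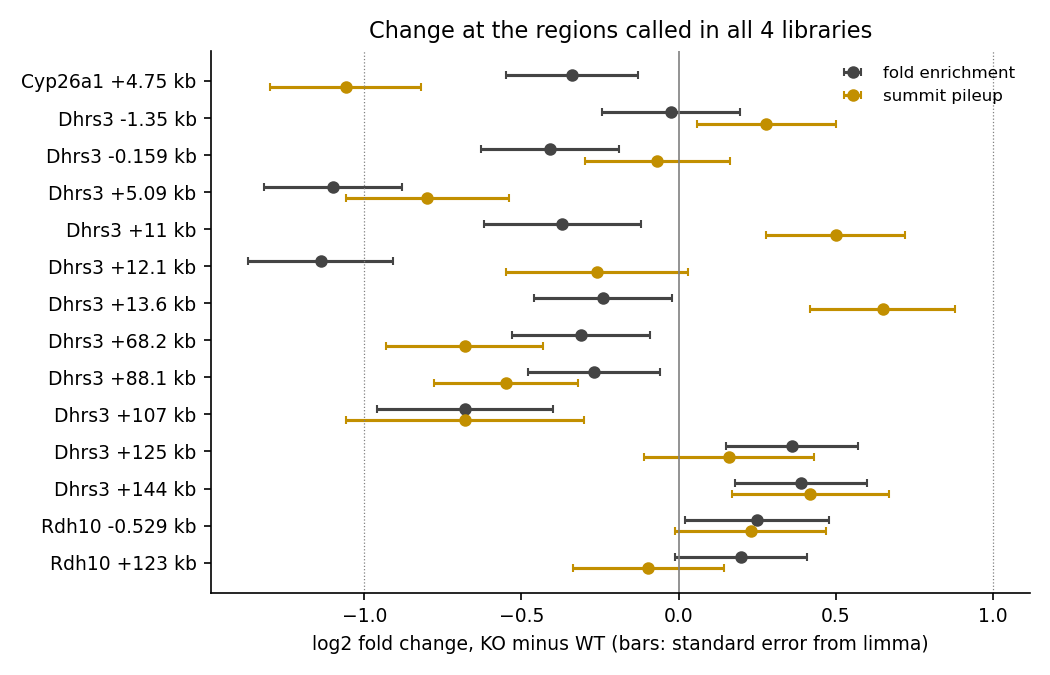
Log2 fold change (KO minus WT) of the 14 regions with its standard error from limma, in fold enrichment (grey) and summit pileup (yellow). Dotted lines mark the threshold of 1 in either direction, which the pileup passes at Cyp26a1 with an adjusted p of 0.0296, while 2 Dhrs3 regions pass it in fold enrichment with adjusted p values of 0.0562 and 0.0591 from limma.

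Of the other 35 genes listed for the pathway, 26 had a region and together they had 151, of which 82 and 39 were called in WT and 135 and 119 in KO. Among all genes, 23.1% had no region. In all, 39 of the 151 (25.8%) were called in all 4 libraries, against 21.5% of all regions. Another 33 (21.9%) were called in both KO libraries alone, against 22.8%, and 0 in both WT libraries alone, against 0.0452%. On fold enrichment 0 of the 39 passed the limma threshold in either direction. On the pileup 0 were lower in KO, against 4.98% of all regions, and 3 of the 39 higher, against 2.49%, 2 at Rxra and 1 at Bco1, which cleaves beta-carotene to retinaldehyde. The Rxra region in an intron 47.9 kb from the TSS had a pileup of 65 and 12 in WT and 213 and 219 in KO, a change of 2.09 (SE 0.27, limma adjusted p = 0.0183), and one 29.7 kb from the TSS had 185 and 30 against 430 and 276 (1.34, SE 0.23, limma adjusted p = 0.0199). The Bco1 region, in an intron, had 74 and 15 against 148 and 114 (1.10, SE 0.22, limma adjusted p = 0.0251). In fold enrichment the same 3 regions differed by 0.45, 0.03 and 0.58 (limma adjusted p = 0.234, 0.953 and 0.142). The receptor gene Rarb, itself a classical target of retinoic acid, had 19 regions, called 10 and 5 times in WT and 16 and 14 times in KO, and Rara had 15, called 9 and 5 times and 11 and 12 times. Fabp5, a carrier of fatty acids and retinoic acid, and the transglutaminase Tgm2 had 10 regions each, called 5 and 3 times in WT against 9 in each KO library and 7 and 5 times against 9 in each.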

How the data were processed

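ATAC-seq of 2 genotypes was analysed, with 2 libraries each. Per the labels, the authors trimmed and aligned the reads to mm10 with cutadapt 1.7 and Bowtie2, filtered them with SAMtools 0.1.18 and bedtools 2.24.0, and ran MACS2 2.1.1 on every library separately (q value of 0.05). The deposited peak tables hold a fold enrichment per summit, which is a ratio over local background. In the deposited tables, significance is stored as −log10 p and −log10 q values. Summit offsets placed the summits. The integer score and read counts per region were not used here.

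Peaks sharing at least 1 bp were merged, and regions were placed by midpoint on 43783 RefSeq NM and NR transcripts, with promoters from 1 kb upstream to 200 bp downstream. Pileups were recovered by finding the whole number of tags that reproduces both the enrichment (pseudocount of 1) and its p value. This failed for 1 peak of WT replicate 1 and 2 of KO replicate 1. The regions called in all 4 libraries were compared by limma 3.58.1 under R 4.3.3, using moderated t statistics and Benjamini-Hochberg adjustment over all of them. Other steps used Python 3.11.15, numpy 2.4.6, pandas 2.3.3, scipy 1.17.1, pysam 0.24.0 and matplotlib 3.10.9. The steps were tested on simulated data.

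Alternatives were a q value of 0.01, equal numbers of peaks, other merging rules, assignment by nearest TSS only, a mean-variance trend in limma, other scaling, the pileup, adjusted p alone, leaving out each library, regions found in 2 or more libraries with both genotypes among them, and looser repeat searches. They were fixed before the values given here were computed.

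For each gene, the promoter region and the strongest region by mean log2 fold enrichment over the libraries with a call are given, with every region past the threshold on either measure or holding a DR1, DR2 or DR5. Other single regions were chosen after their values were seen. Of the 35 other pathway genes, 6 are named, those with a region past the threshold and those with the most regions, besides Cyp26c1, named where it holds a Cyp26a1 region. Marker lists covered LPMs, small peritoneal macrophages, mesothelium and stroma, T cells, mast cells, neutrophils and dendritic cells, and a further list is not reported here. The genes and lists were chosen with earlier results of these data known.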

Additional observations from a re-analysis of the deposited data

How the results depend on the processing

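With equal numbers of peaks per library, the regions of these genes called in both WT libraries alone went from 0 to 4, those in both KO libraries alone from 12 to 0 and those in all 4 from 14 to 8, with 14, 11 and 10 called in WT replicate 1, KO replicate 1 and KO replicate 2. This setting takes fewer peaks from 3 of the libraries. Leaving out 1 library at a time gave 0 to 1, 12 to 27 and 14 to 29 for the same 3 counts. Of the regions of these genes, limma called 0 higher in WT in fold enrichment, but 1 on the pileup, 2 among regions called in at least 2 libraries, and 0 to 2 when a library was left out. It called 2 higher in KO among regions called in at least 2 libraries. Both had a value in only 1 WT library, and that of Cyp26a1 in only 1 KO library, so they have no spread between WT libraries of their own. Over all regions, 7 were higher in WT and 6 in KO. These became 757 and 379 on the pileup, 0 and 0 without centring, 137 and 2750 for at least 2 libraries (with at least 1 of each genotype) and 76 and 61 with a mean-variance trend. Quantile normalization gave 2 higher in WT and 9 in KO. Leaving out a library gave 9 to 543 higher in WT and 3 to 757 in KO, where a lone sample is assumed to vary like the other group. With 1 mismatch, DR1 was found in 4 and DR5 in 8 regions of these genes, and DR5 in 2 over whole regions.

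Among single regions, some uncalled changes switched sign. On the pileup these were −0.10 at 123 kb of Rdh10, and 0.28, 0.50 and 0.65 at −1.35, 11.0 and 13.6 kb of Dhrs3. Without centring they were 0.34, 0.12, 0.06 and 0.10 at −1.35, 13.6, 68.2 and 88.1 kb of Dhrs3 and 0.03 at 4.75 kb of Cyp26a1. Quantile normalization gave 0.18 at −1.35 kb of Dhrs3. Leaving out a library gave −0.22 to 0.33 at 123 kb of Rdh10 and −0.22 to 0.02 at −1.35 kb of Dhrs3. All 14 kept direction and call at a q value of 0.01 and with a trend, as did the 13 with a value when peaks were taken as 100 bp either side of the summit. The cause was not tested. The pileup was not tried with libraries left out. No paired analysis was possible because the groups share fewer than 2 replicate numbers. In WT replicate 3, with the fewest peaks, a missing call shows only a signal under the threshold.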

Other observations

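With 1 mismatch allowed over both hexamers, 13 of the 61 regions (21.3%) held a DR1, DR2 or DR5 within 300 bp centred on the strongest summit, against 7.18% of all regions. At Dhrs3, DR1 was found at 11.0, 15.8 and 132 kb, DR2 at −19.1 and 68.2 kb, and DR5 at 55.0, 107 and 134 kb. Cyp26a1 had DR2 and DR5 at 4.75 kb and DR1 and DR5 at 117 kb. DR5 was also found at 14.1 and −47.1 kb of Cyp26b1 and at 55.9 kb of Rdh10.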
